A study of Mus musculus with 10 samples.

Results

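The major histocompatibility complex (MHC) and antigen presentation genes were described in tuft cells and non-tuft epithelial cells of the inflamed pancreas. Members were chosen by name alone: the H2 genes, B2m, the Tap and tapasin genes, Cd74, Ciita, Erap1, Cd1d and Mr1, Ifi30 and the RFX subunits. In all, 35 of the 12160 genes listed in the table met this rule. Of these, 23 belong to the class I pathway, 11 to the class II pathway, and 1, H2-Ke6, lies in the MHC region but encodes a steroid dehydrogenase. Ifi30 was kept with class II, as it was counted in no other list here. Nlrc5, Rfx5, Rfxap and H2-Oa fit the rule but were not among the listed genes, so they were not analysed here.

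Class I molecules pair a polymorphic heavy chain with the light chain beta-2 microglobulin (B2m) and display peptides cut by the proteasome, pumped into the endoplasmic reticulum by the Tap transporter and loaded with the help of tapasin. Almost every nucleated cell carries them, and CD8+ T cells and natural killer (NK) cells read them. Class II molecules are built from an alpha and a beta chain, travel with the invariant chain Cd74 to endosomes, exchange its remnant for a peptide with the help of H2-DM and are read by CD4+ T cells. Dendritic cells, macrophages and B cells carry class II throughout, and epithelial cells can gain it in inflamed tissue under the control of the transactivator Ciita.

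The 10 libraries came from wild-type male CD1 mice with pancreatitis induced by caerulein, a cholecystokinin analogue. The strain field of the sample records reads Mixed, CD-1 mice are outbred, and the animals' age and MHC haplotypes were not given in the sources used here. Epithelial cells were sorted as negative for Cd45, the pan-leukocyte marker, and positive for EpCAM. Those positive for Siglec f gave 5 tuft cell libraries, and those without Siglec f gave 5 libraries of non-tuft epithelium. Cells came from 5 mice, with 100 sorted cells in each library, and were processed with Smart-Seq2, a full-length cDNA method for few cells. Both groups carried the treatment, so no uninjured pancreas stands beside them, and Siglec f is also carried by eosinophils, which the Cd45 gate was meant to remove.

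Levels are the deposited normalized log2(RPKM + 1) values, which are scaled for transcript length, and a gene at the lowest value of its library (0, and 0.17 in non-tuft library 2) is called at the floor. Depth is unknown, so no counting interval is given. The groups matched their labels: 12 of 13 listed tuft markers were called higher and 12 of 15 acinar markers lower in tuft libraries. Islet markers were called lower for 5 of 11, with summed linear levels (2 to the log2 value, minus 1) of 147 to 22011 in non-tuft and 25.02 to 70.8 in tuft libraries. The sum of the acinar markers ran from 706 in tuft library 5 to 67286 in tuft library 4, against 64194 to 97952 in the non-tuft libraries. Listed fibroblast and endothelial markers were all above the floor, 8 of 8, in non-tuft library 5 (sum 754) and tuft library 5 (sum 254), and their sum was at most 23.1 in the other libraries. A gene was called at an adjusted p under 0.05 (limma, Benjamini-Hochberg over all listed genes) and a fold change over 4. In a library of sorted cells, fewer cells of a type and less RNA per cell cannot be told apart.

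Promoters were read from RefSeq on GRCm38.p6 (250 bases before to 50 after the start of the gene), which matched 22 of the 35 members. The promoters of H2-D1, H2-K1 and H2-M3 are shown because H2-D1 and H2-M3 were the called members and H2-K1 is the other classical heavy chain, which was not called. They lie at chr17:35262844-35263143, plus strand (H2-D1), chr17:34000298-34000597, minus strand (H2-K1) and chr17:37269984-37270283, plus strand (H2-M3). Capitals mark matches on either strand to a kappa B motif (GATTCCCC), an interferon response motif (TTTCACTTC), the X2 box core (TGACG) and the Y box core (ATTGG, which reads CCAAT on the other strand). The motifs were chosen with the sequences in view.
H2-D1: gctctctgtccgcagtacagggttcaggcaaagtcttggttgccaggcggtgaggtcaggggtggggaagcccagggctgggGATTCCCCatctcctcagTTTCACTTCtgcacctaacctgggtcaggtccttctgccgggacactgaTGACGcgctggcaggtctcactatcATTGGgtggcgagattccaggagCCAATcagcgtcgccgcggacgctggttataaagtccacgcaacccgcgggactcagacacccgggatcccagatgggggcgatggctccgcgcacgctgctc
H2-K1: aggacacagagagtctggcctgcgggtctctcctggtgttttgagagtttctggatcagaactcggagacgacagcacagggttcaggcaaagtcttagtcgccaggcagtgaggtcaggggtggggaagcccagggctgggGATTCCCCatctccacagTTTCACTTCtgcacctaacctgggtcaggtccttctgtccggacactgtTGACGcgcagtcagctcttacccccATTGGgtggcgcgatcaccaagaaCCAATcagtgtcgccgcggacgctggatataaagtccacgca
H2-M3: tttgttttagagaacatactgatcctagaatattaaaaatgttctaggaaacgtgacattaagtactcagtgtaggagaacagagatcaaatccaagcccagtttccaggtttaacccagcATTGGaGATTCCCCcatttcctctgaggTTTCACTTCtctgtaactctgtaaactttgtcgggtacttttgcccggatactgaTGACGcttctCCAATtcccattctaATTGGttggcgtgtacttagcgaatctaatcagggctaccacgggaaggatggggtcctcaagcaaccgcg
Over the aligned part, the H2-D1 and H2-K1 promoters were identical at 90.4% of 228 columns, those of H2-D1 and H2-M3 at 67.5% of 191 columns and those of H2-K1 and H2-M3 at 66.0% of 159. The H2-D1 and B2m promoters were identical at 64.5% of 110 columns, so the H2-M3 values were close to that of B2m. The kappa B motif was in these 3 members and in 0.825% of all 27025 promoters. The interferon response motif was in 5 of the 22 members with a promoter (these 3, H2-Q4 and H2-Q7) and in 0.522% of all promoters. The short cores were common: TGACG was in 10 of the 22 members and 21.0% of all promoters, and ATTGG in 18 members and 37.9%.

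In class II promoters, the X2 and Y boxes lie a short stretch apart and bind the complex that Ciita joins. The promoter of H2-Aa (chr17:34287774-34288073, minus strand) and that of H2-Eb1 (chr17:34305617-34305916, plus strand) are shown because they carry the 2 forms of the X2 stretch found here, with TGATGATG also in capitals.
H2-Aa: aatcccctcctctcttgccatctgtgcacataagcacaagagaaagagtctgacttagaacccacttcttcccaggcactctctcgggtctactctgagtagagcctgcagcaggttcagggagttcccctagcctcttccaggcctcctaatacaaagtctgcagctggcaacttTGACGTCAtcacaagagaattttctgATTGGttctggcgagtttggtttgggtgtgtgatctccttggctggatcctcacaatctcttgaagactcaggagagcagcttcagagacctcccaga
H2-Eb1: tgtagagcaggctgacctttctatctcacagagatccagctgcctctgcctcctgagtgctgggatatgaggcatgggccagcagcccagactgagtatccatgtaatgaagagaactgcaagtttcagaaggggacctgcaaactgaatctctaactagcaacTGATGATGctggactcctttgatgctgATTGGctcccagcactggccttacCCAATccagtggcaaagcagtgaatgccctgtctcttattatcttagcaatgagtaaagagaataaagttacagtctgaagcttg
TGATGATG was in the promoters of H2-Eb1 and H2-DMb1 and in 1.47% of all promoters. A match is a description of these letters and not a measured binding site.

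Of the 23 class I members, H2-D1 was called higher in tuft cells and H2-M3 lower. None of the 11 class II members was called in either direction by limma, and 2 of them, Rfxank and H2-DMb1, had an unadjusted p under 0.05. Over all listed genes, 4.32% were called higher, 3.99% lower and 8.31% in either direction, and 25.1% had an unadjusted p under 0.05. Over all 35 members, the share called was thus not above that of all genes, and for class I, 2 of 23, it was close to it. The median log2 fold change (tuft minus non-tuft) was 0.20 for class I, with 13 members above 0 and 10 below. It was -0.62 for class II, with 2 above and 9 below, against 0.02 for all listed genes. The groups did not overlap for 1 member, H2-D1. Over all genes, they did not overlap for 6.31% with tuft higher and 5.12% with tuft lower. Many members were low: 7 of 23 class I and 2 of 11 class II members were above the floor in all 10 libraries, as were 6103 of the 12160 listed genes.

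**Figure D1:**
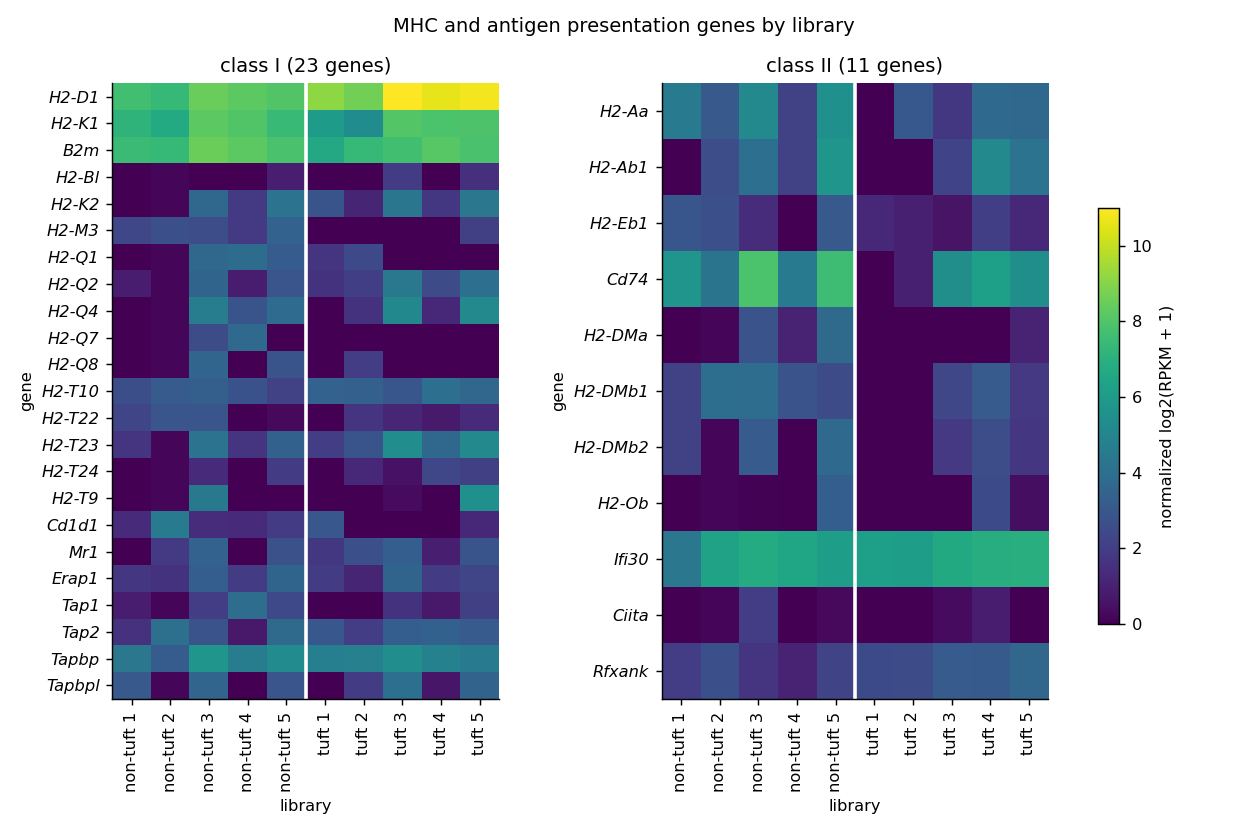
Heat maps of the normalized log2(RPKM + 1) of the 23 class I (left) and 11 class II (right) members, with a gene per row, a library per column and a white line between the 5 non-tuft and 5 tuft libraries. H2-D1, H2-K1 and B2m are high in every library, H2-D1 reaches 10.97 in tuft library 3, and most other heavy chains and class II genes are at the floor in some libraries.

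H2-D1 and H2-K1 encode the classical class I heavy chains, which present peptides to CD8+ T cells. H2-D1 (NCBIM37 chr17:35399675-35404444, plus strand) was at 7.68, 7.35, 8.51, 8.24 and 8.03 in non-tuft libraries 1 to 5. It was at 9.15, 8.66, 10.97, 10.60 and 10.82 in tuft libraries 1 to 5. Every tuft library lay above every non-tuft library, and tuft libraries 1 and 2 were the lowest of their group. The mean was 10.04 ± 1.06 (SD, n = 5) in tuft and 7.96 ± 0.46 (SD, n = 5) in non-tuft libraries, a log2 fold change of 2.08 (SE 0.52, 95% interval 0.97 to 3.19) or 4.23-fold. The adjusted p was 0.0183 (limma), and the exact two-sided permutation p was 0.00794, the smallest that 5 against 5 libraries allow. The adjusted p was 0.0544 without tuft library 3, 0.0548 without tuft library 5, and 0.0873 without tuft library 5 and non-tuft library 5, which held fibroblast markers. The fold was below 4 in each of these fits, and also without non-tuft library 2 or tuft library 4. Of 5 listed T and NK cell markers, 2 were called higher in tuft libraries: Lck, at 2.59 to 4.78 in tuft libraries, and Klrb1c, listed at 0 in tuft library 2 and at 5.29 to 6.28 in the other tuft libraries. No non-tuft library was above the floor for either gene. The T cell receptor complex genes Cd3d and Cd3g were listed at 0 in tuft libraries 1 to 4. They were at 1.12 and 1.92 in tuft library 5 and at 3.40 and 3.72 in non-tuft library 5. The remaining marker, Cd2, was at 4.34, 2.95 and 2.83 in tuft libraries 1, 3 and 5. It was at 3.02 in non-tuft library 5 and at the floor in the other libraries. The part of such cells in the H2-D1 values was not tested.

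H2-K1 (chr17:34132962-34137278, minus strand) was at 7.17, 6.71, 8.25, 8.03 and 7.45 in the non-tuft libraries. It was at 6.09, 5.33, 8.06, 7.90 and 7.92 in the tuft libraries. The groups overlapped, with tuft libraries 1 and 2 below all others and the remaining tuft libraries inside the non-tuft range. Its log2 fold change was -0.46 (SE 0.59, 95% interval -1.73 to 0.81, adjusted p 0.673, limma). B2m, the light chain that both heavy chains need to reach the cell surface (chr2:121973422-121978819, plus strand), was at 7.49, 7.36, 8.54, 8.24 and 7.86 in the non-tuft libraries. It was at 6.65, 7.36, 7.68, 8.12 and 7.85 in the tuft libraries, and the groups overlapped. The log2 fold change of B2m was -0.37 (SE 0.41, 95% interval -1.26 to 0.53, adjusted p 0.630, limma). The annotation places B2m inside Patl2, a gene on the opposite strand, so reads of that gene cannot be told from those of B2m without strand.

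The distance between H2-D1 and H2-K1 within a library set the groups apart more sharply than either level, a measure chosen after the values were seen. H2-D1 exceeded H2-K1 by 0.51, 0.64, 0.26, 0.21 and 0.58 log2 units in non-tuft libraries 1 to 5. In tuft libraries 1 to 5 the distance was 3.06, 3.33, 2.91, 2.70 and 2.90. The tuft libraries with low H2-K1 thus had low H2-D1 as well, and the distance varied little within either group (0.44 ± 0.19 and 2.98 ± 0.23, SD, n = 5 each). The shift of 2.54 had an exact two-sided permutation p of 0.00794, or 0.0238 after adjustment over the 9 members, above the floor in all libraries, against which H2-D1 was set. H2-D1 was already the 1 member whose groups did not overlap. The adjustment covers the partner genes and not the choice of H2-D1, so these p-values add no separate support. The shift was 2.46 to 2.61 with each library left out in turn. Of the 6102 genes other than H2-K1 that were above the floor in all libraries, H2-D1 included, 3.59% stood farther above H2-K1 in every tuft than in every non-tuft library, and 1.93% did so by a shift at least that of H2-D1.

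As a share of the summed linear levels of H2-D1 and H2-K1, H2-D1 made up 53.7% to 60.9% in non-tuft and 86.7% to 91.1% in tuft libraries (57.6% ± 3.28 and 88.8% ± 1.65, SD, n = 5 each). H2-D1 also stood close to B2m in every non-tuft library, at a log2 distance of 0.06 ± 0.11, and 2.51 ± 0.76 above it in tuft libraries (adjusted exact permutation p 0.0238 over the same 9 members, n = 5 each). Erap1 gave the same adjusted p without overlap, with a shift of 2.33. The adjustment for B2m and Erap1 likewise leaves out the choice of H2-D1. The distance of H2-K1 from B2m was -0.37 ± 0.17 in non-tuft and -0.47 ± 0.94 in tuft libraries, and these groups overlapped (exact permutation p 0.913, n = 5 each). In tuft library 2, H2-K1 lay 2.03 below B2m.

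Near-identical copies limit these values. Of the 50-base stretches of H2-D1 transcripts, a read length, 12.8% occurred in transcripts of another gene, mostly H2-Q2, and 4.68% occurred in H2-K1. For H2-K1 the share was 7.29%, with 5.76% in H2-D1, and for B2m it was 0. The search covered the protein-coding transcript set alone, without H2-K2 and H2-Q8, so copies outside that set are not counted. These shares are those of the reference genome, while the mice were outbred, and reads of alleles that differ from the reference were not examined.

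**Figure D2:**
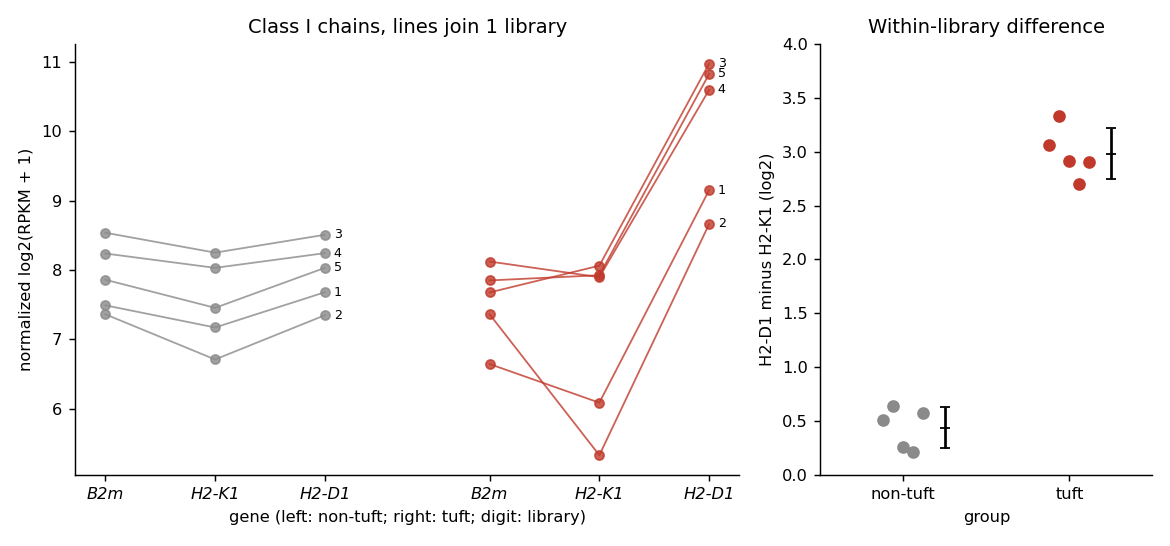
Left, normalized log2(RPKM + 1) of B2m, H2-K1 and H2-D1, with a line for each library (grey, non-tuft; red, tuft; digits, library numbers). Right, H2-D1 minus H2-K1 in each library with the group mean ± SD beside the points: the non-tuft points lie from 0.21 to 0.64 and the tuft points from 2.70 to 3.33.

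The other class I heavy chains include the Q, T and M genes, whose products present restricted sets of ligands or engage receptors of NK and unconventional T cells. H2-M3, which presents N-formylated peptides of bacteria and mitochondria (chr17:37407165-37411429, plus strand), was at 2.33, 2.69, 2.59, 1.86 and 3.46 in the non-tuft libraries. Tuft libraries 1 to 4 listed it at 0, and it was at 2.07 in tuft library 5, which lay inside the non-tuft range. The log2 fold change was -2.17 (SE 0.50, 95% interval -3.25 to -1.09, adjusted p 0.0122, limma) and the exact two-sided permutation p was 0.0159 (n = 5 each). With 4 of 5 tuft libraries at 0, the size depends on the constant added to RPKM: the log2 fold change was -4.65 with 0.1 added and -0.53, no longer called, with 10 added. The fold was under 4 without non-tuft library 5 (log2 fold change -1.95), the adjusted p was 0.114 when libraries were centred on ribosomal protein genes, and H2-M3 was too low to be tested where a mean log2 value of at least 2 was asked.

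The 13 heavy chain genes beyond H2-D1 and H2-K1 had log2 fold changes from -2.17 to 1.602, with 8 above 0. The 12 other than H2-M3 had adjusted p of 0.251 to 0.925 (limma). The annotation lists H2-K2 as a pseudogene, H2-Bl and H2-T10 as polymorphic pseudogenes and H2-Q8 as a processed transcript. H2-T23, chosen here after its values were seen, encodes the Qa-1 chain that the inhibitory receptor NKG2A on NK cells reads. It was at 1.69, 0.17, 4.19, 1.64 and 3.40 in non-tuft and at 1.98, 2.85, 5.39, 3.69 and 5.19 in tuft libraries, and the groups overlapped. Its log2 fold change of 1.60 (95% interval -0.18 to 3.38, adjusted p 0.251, limma) had the highest value among these 13. H2-T10 was the one of the 13 above the floor in all 10 libraries, at 2.16 to 3.31 in non-tuft and 2.92 to 4.02 in tuft libraries. H2-Q7 was at the floor in all tuft libraries and in 3 of 5 non-tuft libraries. Copies matter more here, and 10 of these 13 had a transcript in the protein-coding set that was searched. For these 10, 0.576% (H2-M3) to 98.4% (H2-T9) of 50-base stretches occurred in another gene, and 6 exceeded 10%. H2-T10 and H2-T22 shared 40.5% and 40.6%, largely with each other.

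Cd1d1 presents lipids to natural killer T cells, and Mr1 presents vitamin B metabolites to mucosal-associated invariant T cells. Cd1d1 was at 1.30, 4.54, 1.38, 1.34 and 1.92 in the non-tuft libraries. It was at 2.97, 0, 0, 0 and 1.29 in the tuft libraries, so 3 of 5 tuft libraries were at the floor and no non-tuft library was, yet tuft library 1 exceeded all but one non-tuft library. Its log2 fold change was -1.25 (95% interval -2.85 to 0.35, adjusted p 0.330, limma), and 26.6% of its 50-base stretches also occurred in Cd1d2. Mr1 was at 0 to 3.46 in non-tuft and 0.91 to 3.30 in tuft libraries, with a log2 fold change of 0.69 (95% interval -0.87 to 2.25, adjusted p 0.599, limma).

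The genes of peptide supply and loading gave adjusted p of 0.428 to 0.971 (limma). Tap1 and Tap2 form the transporter that carries peptides into the endoplasmic reticulum. Tap1 was at 0.17 to 3.91 in non-tuft and 0 to 2.09 in tuft libraries (log2 fold change -0.96, 95% interval -2.45 to 0.52), and Tap2 at 0.77 to 4.05 and 2.00 to 3.40 (0.37, 95% interval -0.97 to 1.71). Tapasin, encoded by Tapbp, bridges the transporter and the empty heavy chain, and was the highest of these genes. It was at 4.34, 3.20, 5.75, 4.66 and 5.32 in non-tuft and at 4.74, 4.78, 5.39, 4.81 and 4.55 in tuft libraries, a log2 fold change of 0.20 (95% interval -0.84 to 1.24). Tapbpl, a tapasin-related editor of the peptide repertoire, was at 0 to 3.61 and 0 to 4.03 (0.08, 95% interval -1.90 to 2.05). Erap1 trims peptides in the endoplasmic reticulum and was at 1.61 to 3.54 in non-tuft and 1.13 to 3.55 in tuft libraries (-0.25, 95% interval -1.43 to 0.94). These intervals include changes of 2-fold in both directions for Tapbpl alone, and in at least one direction for the others.

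**Figure D3:**
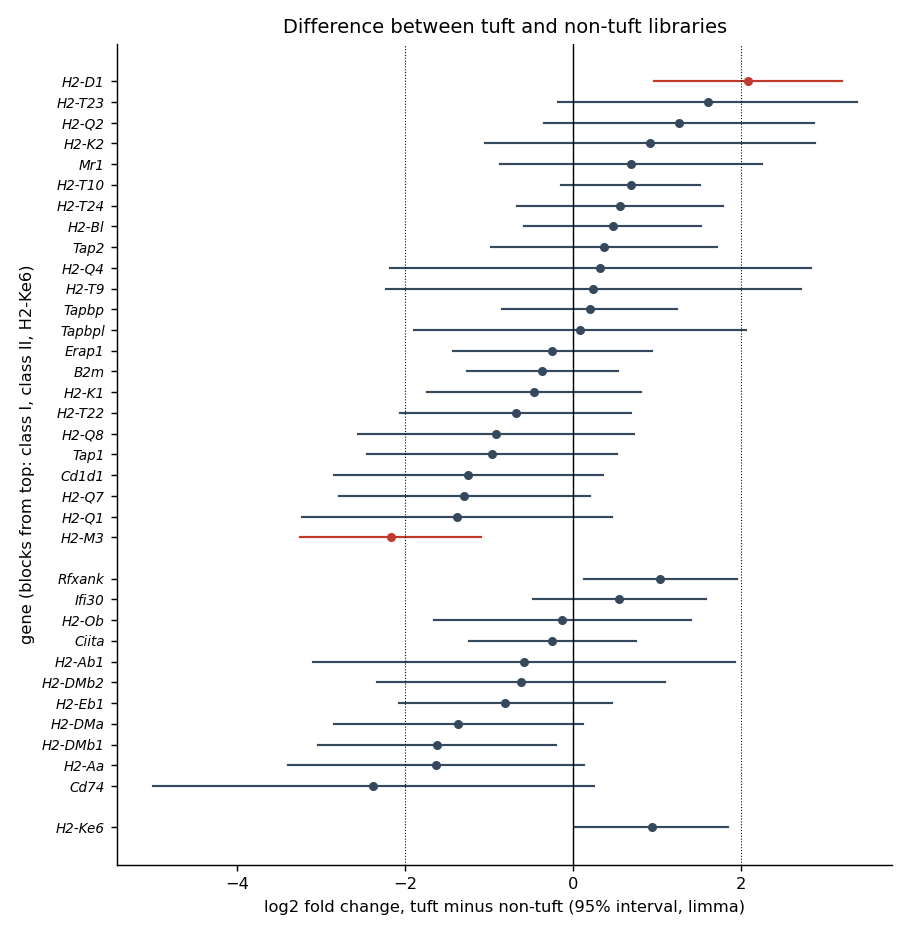
Log2 fold change (tuft minus non-tuft) of each of the 35 members with its 95% interval from limma, sorted within class I, class II and H2-Ke6, with dotted lines at 4-fold. The 2 called members, H2-D1 at 2.08 and H2-M3 at -2.17, are in red, and most other intervals cross 0.

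Class II transcripts varied widely between libraries of the same group. The class II chains among the members were the alpha and beta chains of H2-A and the beta chain of H2-E. The alpha chain of H2-E was not among them. H2-Aa was at 4.51, 3.08, 5.17, 2.14 and 5.52 in the non-tuft libraries and at 0, 3.01, 1.79, 3.78 and 3.71 in the tuft libraries. H2-Ab1 was at 0, 2.58, 4.03, 2.13 and 5.74 in the non-tuft libraries and at 0, 0, 2.20, 5.17 and 4.19 in the tuft libraries. H2-Eb1 was at 2.92, 2.68, 1.40, 0 and 3.05 and at 1.26, 0.96, 0.57, 2.04 and 1.21. The groups overlapped for each chain, and the floor was reached in both groups for H2-Ab1. The log2 fold changes were -1.63 (95% interval -3.39 to 0.13, adjusted p 0.237, limma) for H2-Aa, -0.58 (-3.10 to 1.93, adjusted p 0.802) for H2-Ab1 and -0.81 (-2.08 to 0.47, adjusted p 0.440) for H2-Eb1. H2-Aa and H2-Ab1 overlap by 88 bases on opposite strands, and reads there could belong to either.

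Cd74, the invariant chain that escorts class II chains, was the most abundant class II gene after Ifi30 by mean level. It was at 5.75, 4.25, 7.90, 4.53 and 7.57 in the non-tuft libraries and at 0, 0.98, 5.42, 6.22 and 5.48 in the tuft libraries. Tuft libraries 1 and 2 lay below every non-tuft library, while tuft libraries 3 to 5 lay inside the non-tuft range. Its log2 fold change of -2.38 (SE 1.22, 95% interval -5.004 to 0.24) exceeded 4-fold in size, but the adjusted p was 0.247 (limma) and the exact permutation p 0.159 (n = 5 each).

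H2-DMa and H2-DMb1 encode chains of the H2-DM exchanger. H2-DMa was at 0, 0.17, 2.81, 1.08 and 3.80 in non-tuft libraries and was listed at 0 in tuft libraries 1 to 4 and at 1.03 in tuft library 5 (log2 fold change -1.37, 95% interval -2.85 to 0.12, adjusted p 0.239, limma). The level of H2-DMb1 was 2.18, 3.98, 3.93, 2.79 and 2.56 in non-tuft and at 0, 0, 2.36, 3.14 and 1.85 in tuft libraries. No non-tuft library was thus at the floor, while tuft libraries 1 and 2 were. The log2 fold change was -1.62 (95% interval -3.04 to -0.20, adjusted p 0.142, limma). The other members of this group, H2-DMb2 and H2-Ob, were at the floor in 2 and 3 libraries of each group.

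Ciita, the transactivator that turns on class II genes, was at the floor in 3 libraries of each group and reached at most 2.01 in non-tuft and 0.88 in tuft libraries (log2 fold change -0.25, adjusted p 0.785, limma). Rfxank, a subunit of the complex on the X box, was at 2.02, 2.69, 1.71, 1.07 and 2.27 in non-tuft and at 2.49, 2.54, 3.18, 3.10 and 3.64 in tuft libraries. Its levels overlapped only through non-tuft library 2, and the log2 fold change was 1.04 (95% interval 0.13 to 1.94, adjusted p 0.141, limma). Rfxank overlaps Nr2c2ap by 2407 bases on the opposite strand. Ifi30, a thiol reductase that unfolds antigens in endosomes, was the highest class II pathway gene by mean level. It was at 4.36, 6.32, 6.76, 6.46 and 6.16 in non-tuft and at 6.20, 6.15, 6.68, 6.85 and 6.92 in tuft libraries (log2 fold change 0.55, 95% interval -0.48 to 1.58, adjusted p 0.524, limma). Its level was thus above 6 in tuft libraries 1 and 2, where Cd74 was at 0 and 0.98.

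**Figure D4:**
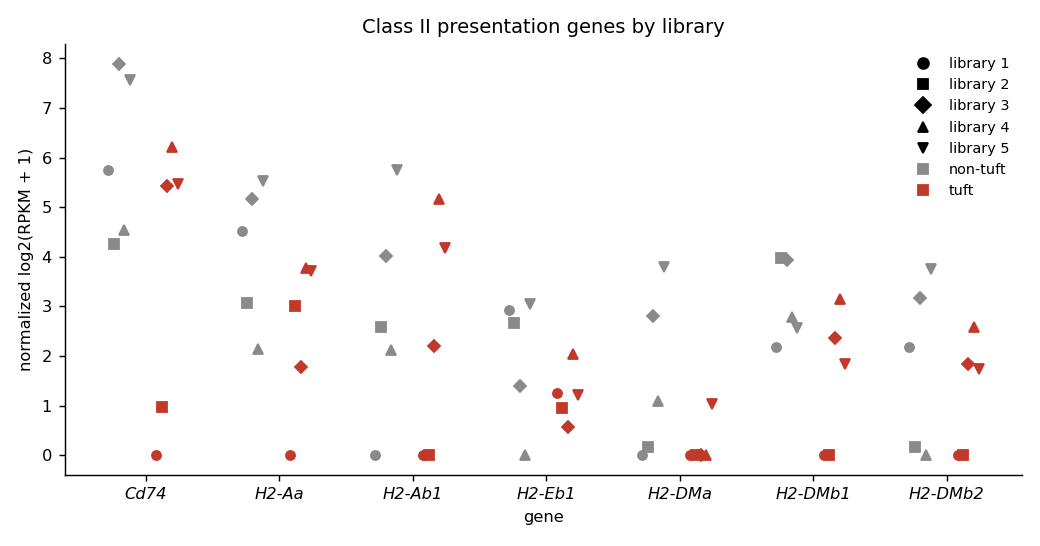
Normalized log2(RPKM + 1) of Cd74, the 3 class II chains and 3 H2-DM chains in each library (grey, non-tuft; red, tuft; marker shape, library number). Tuft libraries 1 and 2 are at 0 for H2-Ab1, H2-DMa, H2-DMb1 and H2-DMb2, and tuft libraries 3 to 5 lie among the non-tuft libraries for Cd74.

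The summed linear level of these 7 class II genes was 88.2, 50.9, 317, 35.96 and 324 in non-tuft libraries 1 to 5. It was 1.39, 8.97, 55.1, 137 and 80.1 in tuft libraries 1 to 5. Non-tuft libraries 3 and 5 had the highest sums, and tuft libraries 1 and 2 had the lowest. The libraries also differed in how many of all listed genes were at the floor. This count was 2395, 3753, 1442, 2349 and 1627 in non-tuft libraries 1 to 5. In tuft libraries 1 to 5 it was 2491, 2764, 1751, 2533 and 1538. The part of these differences in the class II sums was not tested. Markers of cells that carry class II throughout were present to a differing degree. Of 16 macrophage and monocyte, 10 dendritic cell and 10 B cell markers, 8, 3 and 4 were listed, and the summed level of these 15 ran from 21.9 to 182 in non-tuft and from 1.36 to 92.7 in tuft libraries. Cd14 alone made up 25.6% to 88.8% of this sum in non-tuft and 10.3% to 100.0% in tuft libraries. Without Cd14 the sum ran from 12.3 to 128 in non-tuft and from 0 to 62.2 in tuft libraries. Cd14 encodes a receptor of bacterial lipopolysaccharide, and it was above the floor in all 10 libraries. All 8 listed macrophage markers were above the floor in tuft library 3, where Csf1r was at 2.69 and C1qa at 2.81. Outside that library, Csf1r was at 1.72 in non-tuft library 2 and at most at 0.10 elsewhere, and C1qa was at most at 0.42. All 4 listed B cell markers were above the floor in non-tuft library 5 and tuft libraries 4 and 5. Ms4a1 was at the floor in the remaining libraries. Cd79b was at 4.38 in tuft library 1, which had the lowest class II sum. In non-tuft library 3, with a class II sum of 317, all 4 B cell markers were listed at 0, and 5 of 8 macrophage and monocyte markers were above the floor, with Cd14 at 5.79, C1qb at 1.16 and Csf1r at 0.10. Of the 3 listed dendritic cell markers, Flt3 was at 3.96 there, and Zbtb46 and Ccr7 were listed at 0. None of the 7 eosinophil markers written down was listed. The part of other cells in the class II values was not tested.

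**Figure D5:**
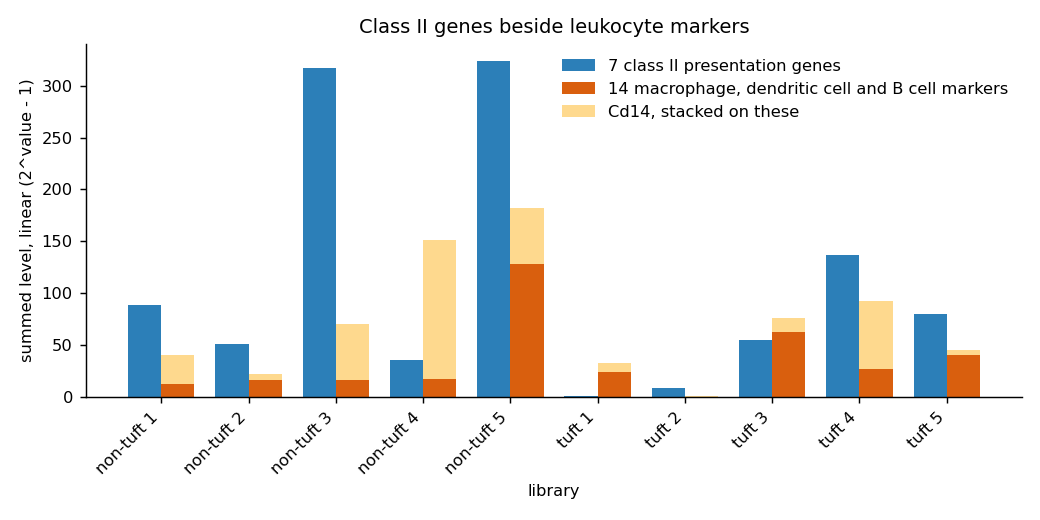
Summed linear level (2 to the normalized log2 value, minus 1) in each library of 7 class II presentation genes (blue) and of the 15 listed macrophage, dendritic cell and B cell markers, with Cd14 (light) stacked on the other 14 (dark orange). Class II sums are highest in non-tuft libraries 3 and 5 (317 and 324) and lowest in tuft library 1 (1.39), the marker sum is highest in non-tuft library 5 (182), and Cd14 makes up 88.8% of it in non-tuft library 4.

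Genes of the same pathways outside the rule were counted from lists in the same fit, in which 4.32% of all genes were called higher and 3.99% lower. The counts are small, and nothing particular to a list is drawn from them. Of 19 listed genes that cut, trim or fold for class I, 1 was called lower and none higher. This was Psmb10, a catalytic subunit of the immunoproteasome, at 6.63 to 9.05 in non-tuft and 5.32 to 6.32 in tuft libraries (log2 fold change -2.31, adjusted p 0.00706, limma). Of 15 listed genes of endosomal proteolysis and class II traffic, 3 were called lower and none higher. Cathepsin L, encoded by Ctsl, was at 7.31 to 8.98 in non-tuft and 1.38 to 6.02 in tuft libraries (log2 fold change -3.53, adjusted p 0.00802, limma). The protease gene Ctsz (log2 fold change -2.60, adjusted p 0.0299) and the lysosomal membrane gene Lamp2 (-2.26, adjusted p 0.00101) also fell. Their levels did not overlap between the groups. Of 22 listed regulators of MHC genes, 1 was called lower: Ezh2, a histone methyltransferase that represses transcription (log2 fold change -2.13, adjusted p 0.0267, limma). Of 11 listed costimulatory and inhibitory ligands, 1 was called lower: Pvr, a ligand of the receptors DNAM-1 and TIGIT (-2.10, adjusted p 0.0254, limma). The list of ligands that NK and myeloid cells read held 6 genes, with Pvr lower and Cd47 higher. Cd47, which restrains phagocytosis, was at 3.89 to 6.79 in non-tuft and 7.93 to 8.60 in tuft libraries (log2 fold change 2.36, adjusted p 0.0140, limma). The median log2 fold change over these lists was -0.20, -0.06, 0.29, -0.16 and -0.36 in the order given, against 0.02 for all listed genes.

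H2-Ke6, the steroid dehydrogenase gene of the MHC region, was at 4.49 to 5.88 in non-tuft and 5.48 to 6.93 in tuft libraries. Its log2 fold change was 0.93 (95% interval 0.02 to 1.85, adjusted p 0.190, limma).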

How the data were processed

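Smart-Seq2 RNA sequencing was analysed in 5 tuft and 5 non-tuft epithelial libraries, grouped from the sample records. The authors aligned single-end reads of 50 bases with HISAT2 (mm9), computed RPKM with StringTie and Ballgown, removed genes of low variance, and deposited quantile normalized log2(RPKM + 1) values. Tool versions are not given in the sources used here. The fold ratio, p-value and false discovery rate columns that the authors deposited hold their own comparison and were not used. Counts and depth were not used here, so precision rests on the spread over libraries. Each library is described as 100 cells of an individual mouse, and the sources do not state whether libraries of the same number share a mouse. Both cell kinds were sorted from 5 mice, so the 10 libraries did not come from 10 animals.

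Values were fitted with limma 3.58.1 (R 4.3.3; lmFit, eBayes, no covariates, all 12160 genes). The fitting code was also run on simulated data that took their means and spreads from these values, which checks the code alone. Called genes passed an adjusted p under 0.05 and a fold over 4. Exact permutation tests ran over all 252 unpaired splits (scipy 1.17.1), and promoters were aligned with biopython 1.88. Members, lists, motifs and the named genes were chosen with earlier results of these data known. Named with values are called members, the main subunits of each pathway and called genes of each list. Members were placed on NCBIM37, the assembly of mm9, for 32 of 35 names. Alternatives were another constant, a low-value filter, trended and robust eBayes, ribosomal protein centring, treat, other thresholds, the replicate number as a block and each library left out. A common floor, the removal of both libraries with fibroblast markers and the H2-D1 to H2-K1 distance were added after the data were seen.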

Additional observations from a re-analysis of the deposited data

Results flagged for a closer look

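Of 44 sets of 5 library values (40 from the 20 named members, and those of the H2-D1 to H2-K1 distance and the class II sum in each group), 6 held a library whose gap to its nearest neighbour took up more of the range of the set than Dixon's 95% limit, where chance gives about 1 in 20. Cd1d1 was at 4.54 in non-tuft library 2 and at 1.30 to 1.92 in the other non-tuft libraries. H2-M3 was at 2.07 and H2-DMa at 1.03 in tuft library 5, while the other tuft libraries were listed at 0 for both. With 4 values tied at 0, any remaining value above 0 passes the limit, so the chance rate does not apply to these 2 sets. Tap2 was at 2.00 in tuft library 2 and at 3.001 to 3.40 in the other tuft libraries. Ifi30 was at 4.36 in non-tuft library 1 and at 6.16 to 6.76 in the other non-tuft libraries. Ciita was at 2.01 in non-tuft library 3 and at 0 to 0.29 in the other non-tuft libraries, 3 of which were at the floor. The chance rate need not hold for this set either, nor for others with several values at the floor. Tuft library 5 also held fibroblast and endothelial markers (8 of 8 above the floor), and the part of these cells was not tested.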

How the results depend on the processing

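The count of 2 called members, both class I (H2-D1 and H2-M3), was 1 with 10 added to RPKM, when a mean log2 level of 2 was asked, with ribosomal protein centring (H2-D1 in each) and without non-tuft library 5 and tuft library 5 (H2-M3). It was 0 with treat against 4-fold and with an adjusted p under 0.01, and 1 to 2 with each library left out in turn. Class II gave 0 called members throughout. With the replicate number as a block the count stayed 2, with adjusted p of 0.0131 for H2-D1 and 0.00909 for H2-M3 (limma). Deviations of same-numbered libraries correlated by 0.06 to 0.24. Tuft libraries 2, 4 and 5 correlated best with the non-tuft library of their own number, and tuft libraries 1 and 3 did not. The sources do not tie the numbers to mice, so the block was not used in the main fit. The main fit and the permutation tests thus treat libraries from 5 mice as unpaired, and their p-values leave out any pairing.

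Of 352 refitted values of 20 named members, 331 kept direction and side of the adjusted p threshold, whatever the fold. In 4 the adjusted p was lost (H2-D1 3 times, H2-M3 once), 1 gained it (Rfxank with centring, adjusted p 0.0238, limma) and 16 changed sign. Among the 331, the fold of H2-D1 fell under 4 without non-tuft library 2 (log2 fold change 1.93) and without tuft library 4 (1.94). That of H2-M3 did so without non-tuft library 5 (-1.95) and with 10 added to RPKM (-0.53). Centring gave log2 fold changes of 0.33 for H2-K1, 0.43 for B2m, 0.55 for Erap1, 0.21 for H2-Ab1 and 0.55 for Ciita, and moved the median of all genes by 0.80. With each library left out in turn, sign changes occurred within ranges of -0.59 to 0.033 for Erap1, -0.090 to 0.73 for Tap2, -0.17 to 0.47 for Tapbp, -0.42 to 0.58 for Tapbpl, -1.31 to 0.13 for H2-Ab1 and -0.41 to 0.13 for Ciita. Tapbpl was at -0.055 without non-tuft library 5 and tuft library 5. The shift of the distance between H2-D1 and H2-K1 stayed at 2.46 to 2.61 with each library left out.

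Over all genes, the count of 1010 calls became 278 with 10 added, 105 with treat and 1514 with centring, where 85.1% of calls were higher against 52.0%. The causes were not tested. Unknown depth limits every statement on genes at the floor.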
